A study of Mus musculus with 5 samples.

Results

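The genes described here are 10 markers of the contractile and supporting cells of the kidney: mesangial cells, pericytes and vascular smooth muscle. They were chosen by symbol, as the rows for Acta2, Myh11, Tagln, Cnn1, Des, Pdgfrb, Notch3, Itga8, Cspg4 and Rgs5 among the 54532 gene IDs of the count table, and all 10 were found and passed the filter on low counts. RNA was sequenced from renal tissues, as the sample titles call them, of wild-type male C57BL/6J mice, an inbred laboratory strain, aged 8 weeks. The treated group (2 libraries) received 10 mg/kg of DMXAA, which binds and activates the mouse form of STING, an adaptor protein for DNA sensed in the cytosol, and the control group (3 libraries) received vehicle. Both were injected intraperitoneally once a day for 3 days and sampled on day 3. The question was how renal transcript levels differ between DMXAA and vehicle. Replicate numbers are given without saying whether they stand for separate mice. The p-values therefore measure the spread between these libraries, which may be technical.

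Mesangial cells hold the capillary loops of the glomerulus together, pericytes wrap the capillaries around the tubules, and smooth muscle forms the wall of arteries and arterioles. All are called mural cells, and all depend on signals from the endothelium: platelet-derived growth factor B (PDGF-B) made by endothelial cells recruits and keeps cells that carry its receptor PDGFRB, and Notch ligands on the endothelium act on NOTCH3. Their contractile genes are controlled by serum response factor (SRF) and its partners of the myocardin family, which act at a short DNA element called the CArG box. Smooth muscle also surrounds the renal pelvis and ureter, so a kidney sample can hold smooth muscle that belongs to no vessel. In whole tissue, fewer cells of a type and less RNA per cell cannot be told apart.

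None of the 10 genes differed between DMXAA and vehicle beyond the spread of the libraries. With edgeR's quasi-likelihood test 0 of 10 were called at an adjusted p below 0.05, and 0% of all 16226 genes tested were called. None of the 10 had an unadjusted p below 0.05, against 6.55% of all genes tested, and DESeq2 also called 0 of the 10, against 0.193% of all genes, with 0 of the 10 at an unadjusted p below 0.05, against 3.54%. The DMXAA libraries lay wholly above or below the vehicle libraries for 0 of the 10 genes, against 26% of all genes. The median log2 fold change was 0.06 for the 10 genes and -0.01 for all genes tested, with 5 estimates above 0 and 5 below. The vehicle libraries spread widely for these genes: the median range over the 3 vehicle libraries was 1.20 on the log2 scale for the 10 genes and 0.36 for all genes tested, while the 2 DMXAA libraries differed by a median of 0.17 for the 10 genes and 0.13 for all genes. A wide vehicle range was not particular to the 10: its median was 0.86 for the other contractile genes listed, 0.69 for the other mesangial and pericyte genes, 1.61 for fibroblast markers and 3.84 for adipocyte markers. The ligand of one of the receptors, Pdgfb, was lower in both DMXAA libraries than in every vehicle library and was called by DESeq2 but not by edgeR.

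**Figure D1:**
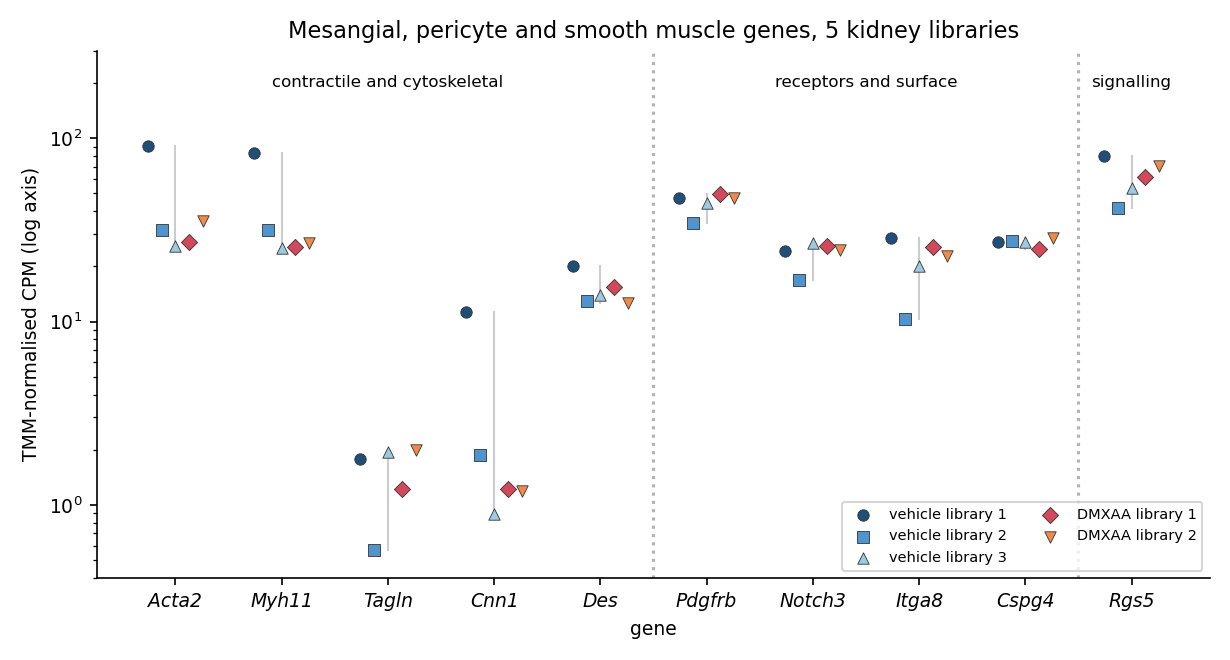
Level of each gene in each library, in CPM after TMM normalisation (log axis), with 1 point per library and a grey line over the range. Vehicle library 1 stands above the other libraries for Acta2, Myh11 and Cnn1, and vehicle library 2 is lowest for Tagln, Pdgfrb, Notch3, Itga8 and Rgs5.

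The 2 libraries that made this spread differed from the rest in other cell types too. Total counts were 17667490 to 20264228 per library. Vehicle library 1 was rich in markers of fat, urothelium and inner medulla. Summed adipocyte markers (12 genes, 11 of them highest in that library) were at 1278 CPM there and at 329 to 446 CPM in the other 4 libraries. Summed urothelial markers (12 genes, 11 highest there, Gsdmc at 0 in every library) were at 381 CPM against 111 to 155 CPM, and inner medulla markers (10 genes, 9 highest there) at 2602 CPM against 557 to 848 CPM. In the other 4 libraries the adipocyte sum came mostly from Acsl1, at 264 to 372 CPM (253 CPM in vehicle library 1). The urothelial sum came mostly from Krt7 there, at 94.3 to 125 CPM (140 CPM in vehicle library 1). Adipoq, for instance, was at 36.8 CPM in vehicle library 1 and at 0 to 0.887 CPM in the others. Vehicle library 2 was poor in stromal transcripts, with 126 CPM of summed fibroblast markers (12 genes, 11 lowest there) against 251 to 371 CPM and 574 CPM of summed endothelial markers (12 genes, 11 lowest there) against 838 to 919 CPM. Inner medulla markers were also lowest in vehicle library 2 (8 of 10 genes), at 557 CPM against 712 to 2602 CPM. Of the 11 urothelial markers tested, 8 were lowest in vehicle library 2, though their sum was not. Podocyte markers were even, at 423 to 522 CPM in all 5 libraries. Proximal tubule markers (10 genes), which identify kidney tissue, summed to 20003 to 28673 CPM. Skeletal and cardiac muscle markers (12 genes, 3 at 0 in every library) were low but also highest in vehicle library 1 (7 of 12 genes), where they summed to 5.08 CPM against 1.33 to 2.56 CPM, with Ckm at 0 counts in 3 libraries and at most 2 in the others.

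**Figure D2:**
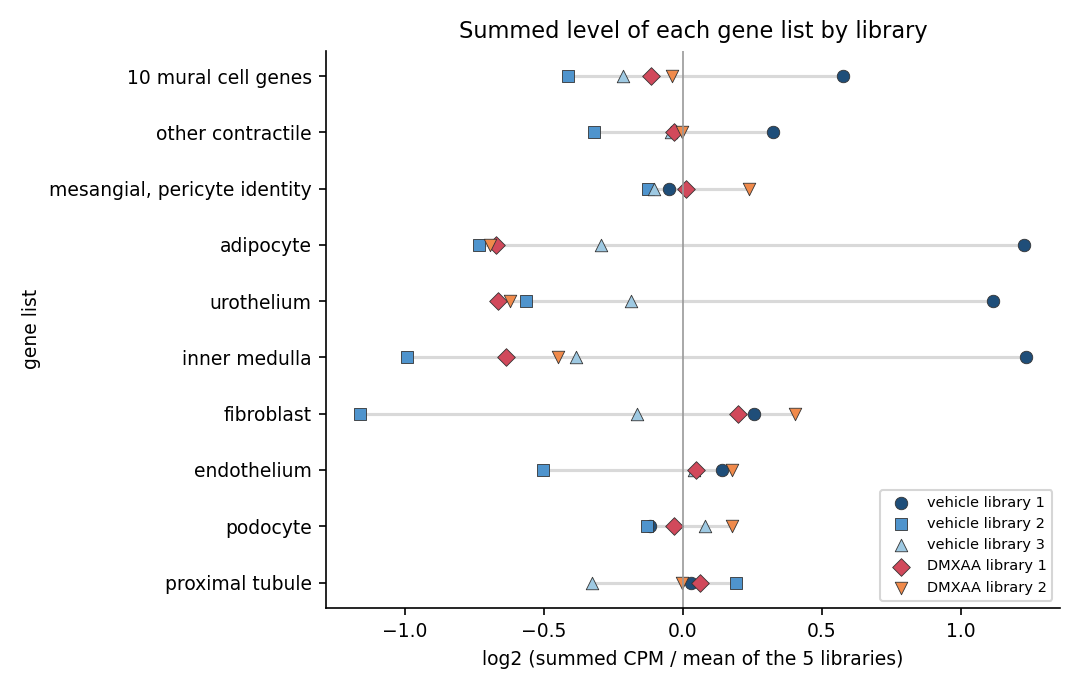
Summed CPM of each gene list in each library, on a log2 scale relative to the mean of the 5 libraries. Vehicle library 1 is highest for the 10 mural cell genes (414 CPM against 209 to 271 CPM), the other contractile genes and the adipocyte, urothelial and inner medulla lists. Vehicle library 2 is lowest for every list shown except the urothelial and proximal tubule lists.

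The contractile and cytoskeletal genes come first. Acta2 encodes smooth muscle alpha-actin, the thin-filament actin of smooth muscle (ENSMUSG00000035783, chr19:34241090-34255590, minus strand, mm10). Acta2 stood at 91.2, 31.4 and 25.7 CPM under vehicle libraries 1 to 3 and at 27.1 and 35.2 CPM in the DMXAA libraries. Vehicle library 1 was high and the other 4 libraries formed 1 overlapping range. The means were 49.4 ± 36.3 CPM (SD, n = 3) and 31.1 ± 5.72 CPM (n = 2), a log2 fold change of -0.67 (SE 0.53, 95% interval -1.94 to 0.60, edgeR adjusted p = 0.802). Without vehicle library 1 the Acta2 estimate was 0.12, so its direction rested on that library. Reads from the coding part of actin genes can match more than 1 actin, which makes the level uncertain. Of the other muscle actins, Acta1 and Actc1 had at most 6 counts in any library, but Actg2 had 154 counts in vehicle library 1, where Acta2 was highest, and 0 to 2 in the others. How reads were divided among these actins was not tested.

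The smooth muscle motor protein gene Myh11, which encodes the myosin heavy chain of the thick filament (ENSMUSG00000018830, chr16:14194535-14291372, minus strand), had the same pattern. It was at 82.8, 31.6 and 25.1 CPM under vehicle and at 25.6 and 26.7 CPM under DMXAA. Only vehicle library 1 was high, and the DMXAA libraries lay between vehicle libraries 2 and 3. The means were 46.5 ± 31.6 and 26.1 ± 0.766 CPM, with a log2 fold change of -0.83 (SE 0.49, 95% interval -2.005 to 0.34, edgeR adjusted p = 0.762) that was -0.12 without vehicle library 1.

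Cnn1 encodes calponin, an actin-binding regulator found in differentiated smooth muscle (ENSMUSG00000001349, chr9:22099216-22109630, plus strand). Cnn1 had the widest spread of the 10 genes, with 11.3, 1.88 and 0.887 CPM under vehicle (209, 33 and 16 counts) and 1.22 and 1.19 CPM under DMXAA (22 and 24 counts). Vehicle library 1 was 8.73-fold above the mean of the other 4 libraries, and the DMXAA libraries again lay between vehicle libraries 2 and 3. The log2 fold change of -1.95 (SE 1.05, 95% interval -4.47 to 0.56, edgeR adjusted p = 0.752) was -0.20 without vehicle library 1. The same ratio of vehicle library 1 to the mean of the others was 3.06 for Acta2, 3.04 for Myh11, 1.46 for Des and 1.25 for Tagln.

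Desmin, encoded by Des, is the muscle intermediate filament protein and is also carried by mesangial cells and pericytes (ENSMUSG00000026208, chr1:75360329-75368579, plus strand). Des was at 20.1, 12.9 and 13.9 CPM under vehicle and at 15.4 and 12.6 CPM under DMXAA. Vehicle library 1 was again highest, with a smaller gap. The log2 fold change was -0.16 (SE 0.22, 95% interval -0.68 to 0.36) with all libraries and 0.05 without vehicle library 1.

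Tagln encodes transgelin (SM22), an early marker of smooth muscle that binds actin (ENSMUSG00000032085, chr9:45929619-45936058, minus strand). Tagln was low and did not share the peak of vehicle library 1: it had 33, 10 and 35 counts under vehicle and 22 and 40 counts under DMXAA, or 1.78, 0.57 and 1.94 CPM against 1.22 and 1.99 CPM. Vehicle library 2 was lowest, and its 10 counts carry an exact 95% Poisson interval of 4.80 to 18.4, which covers counting error only. The log2 fold change was 0.17 (SE 0.55, 95% interval -1.14 to 1.47), and it was -0.21 without vehicle library 2 and -0.23 without DMXAA library 2. In GENCODE M21, 67.9% of the exon bases of Tagln are shared with genes on the other strand, 1241 bases with the antisense gene Gm48529 (14 to 23 counts per library) and 108 with Pcsk7. The sources used here do not give the strand setting or how such reads were counted, so the Tagln level is uncertain and cannot be set beside those of Acta2 or Myh11. The shared part of the exon bases was 5.05 to 6.03% for Des, Notch3 and Itga8 and 0% for the other 6 genes.

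For the CArG box, the promoter windows of RefSeq (GRCm38.p6, the assembly behind mm10) were searched over the 250 bases before each gene's RefSeq start. Windows were searched for 7 of the 10 genes. Myh11, Tagln and Pdgfrb were not searched, so whether they hold the CArG box was not tested. The full element has CC, then 6 bases that are all A or T, then GG, and it reads as the same pattern on both strands. It was in 0 of the 7 windows and in 1.47% of all 32851 windows. With 1 of the 6 central bases allowed to be C or G, a definition added after the sequences were seen, Acta2 held 2 matches, the other 6 genes none, and 8.59% of all windows at least 1 (0.67% at least 2). The contractile gene Myl9, which encodes the regulatory light chain of smooth muscle myosin, held 1 full element and 1 with a C or G. Acta2 and Myl9 were both highest in vehicle library 1, but this does not set them apart. Cnn1 and Des were also highest there and held no match of either kind. The contractile genes Vcl and Cnn2 were highest there too, each with a full element. A link between the element and these levels was not tested. The stretches of Acta2 and Myl9 are shown as examples, with the element in capitals, 5′ to 3′ on the gene's strand:
Acta2, chr19:34255438-34255467, minus strand, element 84 to 75 bases before the start: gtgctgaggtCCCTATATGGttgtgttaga
Acta2, chr19:34255388-34255417, minus strand, element 34 to 25 bases before the start: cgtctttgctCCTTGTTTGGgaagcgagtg
Myl9, chr2:156775293-156775322, plus strand, element 161 to 152 bases before the start: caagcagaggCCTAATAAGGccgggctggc
Myl9, chr2:156775355-156775384, plus strand, element 99 to 90 bases before the start: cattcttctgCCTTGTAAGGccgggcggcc
Both Acta2 elements lie downstream of the start that GENCODE gives the gene. A match describes these letters only. Among the 28 other contractile genes listed, 26 had a window, 3 of them with a full element and 7 with either kind.

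The receptors, surface proteins and the signalling gene Rgs5 spread less at the median. Their median vehicle range was 0.66 on the log2 scale, against 1.72 for the 5 contractile and cytoskeletal genes. By gene the groups were not separate, since Itga8 (1.47) and Rgs5 (0.94) ranged more widely than Des (0.63). Vehicle library 2 was lowest for 4 of these 5 genes and for 1 of the 5 contractile and cytoskeletal genes, Tagln. Pdgfrb encodes the receptor for PDGF-B, which defines pericytes and mesangial cells (ENSMUSG00000024620, chr18:61045150-61085061, plus strand). Pdgfrb stood at 47.5, 34.6 and 44.1 CPM under vehicle and at 49.3 and 47.3 CPM under DMXAA. Vehicle library 2 was low, and vehicle library 1 lay between the DMXAA libraries. The means were 42.1 ± 6.70 and 48.3 ± 1.43 CPM, with a log2 fold change of 0.20 (SE 0.14, 95% interval -0.14 to 0.54, edgeR adjusted p = 0.792) that was 0.08 without vehicle library 2.

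Notch3, the Notch receptor of vascular smooth muscle and pericytes (ENSMUSG00000038146, chr17:32120820-32166852, minus strand), was at 24.2, 16.9 and 26.8 CPM under vehicle and at 25.7 and 24.5 CPM under DMXAA. Vehicle library 2 was low and the other 4 libraries overlapped. Its log2 fold change was 0.15 (SE 0.19, 95% interval -0.32 to 0.61), and -0.02 without vehicle library 2.

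Itga8 encodes integrin alpha-8, which in the kidney glomerulus marks mesangial cells and binds nephronectin and fibronectin (ENSMUSG00000026768, chr2:12106632-12301922, minus strand). It had the widest spread of the surface proteins, with 28.7, 10.3 and 19.97 CPM under vehicle and 25.5 and 22.7 CPM under DMXAA. The mean of the other 4 libraries was 2.35-fold above vehicle library 2. The log2 fold change was 0.29 (SE 0.37, 95% interval -0.59 to 1.17), -0.01 without vehicle library 2 and 0.66 without vehicle library 1 (edgeR adjusted p = 0.510).

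Cspg4 encodes NG2, a surface proteoglycan of pericytes (ENSMUSG00000032911, chr9:56865033-56899870, plus strand). Cspg4 was the steadiest of the 10 genes, with 27.2, 27.4 and 27.3 CPM under vehicle and 24.97 and 28.4 CPM under DMXAA. The DMXAA libraries lay on either side of the vehicle libraries. Its 95% interval, -0.27 to 0.21 around a log2 fold change of -0.03 (SE 0.10), was the narrowest of the 10. It was the exception to the other 9 genes, whose range over the vehicle libraries was larger than their log2 fold change (82.1% of all genes tested had this).

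Rgs5, which encodes a regulator that shortens G-protein signalling and is abundant in pericytes and arterial smooth muscle (ENSMUSG00000026678, chr1:169655501-169695813, plus strand), was at 79.6, 41.5 and 53.8 CPM under vehicle and at 61.3 and 70.5 CPM under DMXAA. Both DMXAA libraries lay above vehicle libraries 2 and 3 and below vehicle library 1. The means were 58.3 ± 19.4 and 65.9 ± 6.49 CPM, with a log2 fold change of 0.18 (SE 0.25, 95% interval -0.43 to 0.78). Without vehicle library 1 the estimate was 0.46 (edgeR adjusted p = 0.411), and without vehicle library 2 it was -0.01.

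**Figure D3:**
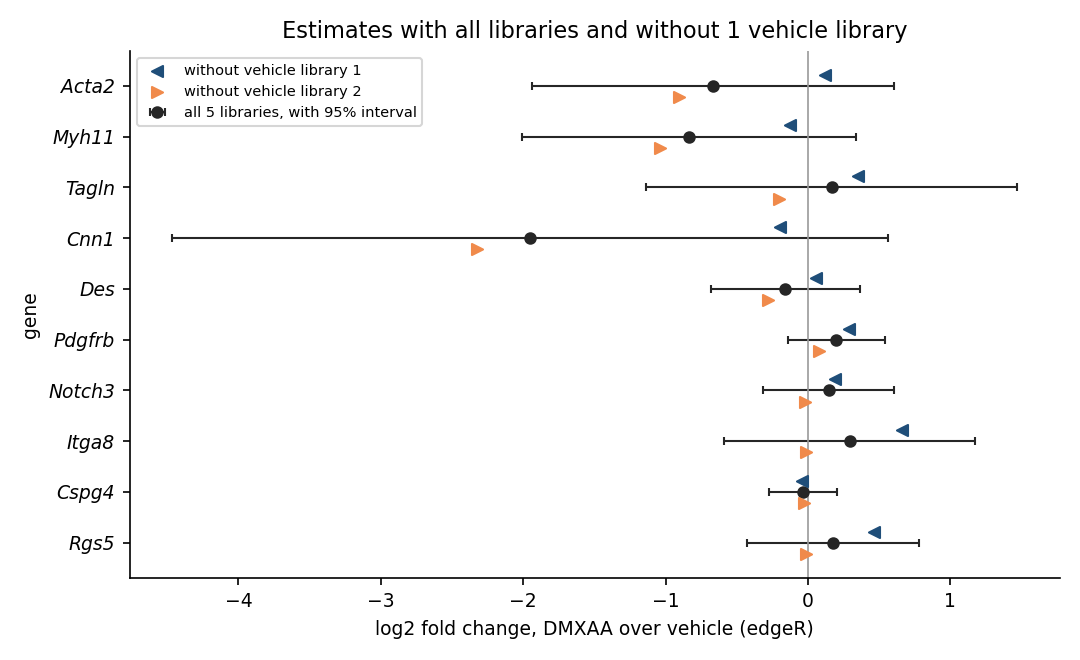
Log2 fold change of each gene, DMXAA over vehicle, with all 5 libraries (black, bars are 95% intervals) and without vehicle library 1 or vehicle library 2 (triangles). All 10 intervals include 0, and leaving out vehicle library 1 moves Acta2 from -0.67 to 0.12 and Cnn1 from -1.95 to -0.20.

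Across the 10 genes, 6 were highest in vehicle library 1, against 25.9% of all genes tested, and 5 were lowest in vehicle library 2, against 25.6%. This was not particular to the 10. Of the 107 genes tested in the 4 related lists described below, 62 (57.9%) were highest in vehicle library 1 and 67 (62.6%) lowest in vehicle library 2. Without vehicle library 1, 7 of the 10 estimates were above 0 and the median log2 fold change was 0.15. Without vehicle library 2, 1 was above 0 and 9 were below, with a median of -0.12. In neither case was any of the 10 called by edgeR, where 0.0126% and 0% of all genes were called. Without vehicle library 1, Itga8 and Rgs5 (2 of 10) had an unadjusted edgeR p below 0.05, against 9.63% of all genes, both with estimates above 0. Myh11 and Cnn1 (2 of 10), both with estimates below 0, had such a p without vehicle library 3 (5.3% of all genes), without an expression filter (5.72%) and with the replicate number as a block (4.87%). None of the 10 was called without an expression filter or with the replicate number as a block either, where 0.121% and 0.0247% of all genes were called. The part of adipose, urothelial and medullary tissue in the high values of vehicle library 1 was not tested. Nor was that of low stromal and inner medulla content in vehicle library 2.

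Per kilobase of exon, Acta2 (14.3 CPM per kb, median of the 5 libraries) and Rgs5 (13.5) were the most abundant, followed by Pdgfrb (8.64), Des (3.71), Myh11 (3.51), Itga8 (3.09), Notch3 (3.03), Cspg4 (2.29) and Cnn1 (0.446). Tagln, whose level is uncertain, is left out of this order. The ranges over the libraries of Acta2 (11.7 to 41.5) and Rgs5 (9.13 to 17.5) overlapped, as did those of Des (3.37 to 5.34) and Myh11 (3.30 to 10.9) and those of Itga8 (1.40 to 3.90) and Notch3 (2.09 to 3.32). Pdgfrb (6.31 to 9.01) lay above the ranges of Des, Itga8, Notch3, Cspg4 and Cnn1 (0.324 to 4.13).

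The mean profiles of the 2 groups of genes had different nearest neighbours over the 5 libraries. Single genes could differ from their group's mean: Tagln was highest in DMXAA library 2, and Cspg4 was nearly even. Likeness was the Euclidean distance between centred log2 CPM profiles, and the 10421 genes compared had a mean log2 CPM over 3. Nearest to the mean of the 5 contractile and cytoskeletal genes were Wfs1 (distance 0.21), Tmem30b (0.22), Plat (0.23), Gprc5b (0.26), Phactr1 (0.29) and Serinc2 (0.30), all high in vehicle library 1. Wfs1, for instance, was at 58.5, 20.3 and 22.2 CPM under vehicle and at 22.8 and 21.0 CPM under DMXAA. Nearest to the mean of the 5 other genes were Kmt2c (0.06), Pbx3 (0.07), Esam (0.08), Zfp608 (0.09), Fgd5 (0.09) and Mga (0.10), all low in vehicle library 2. Esam, an adhesion molecule of endothelial junctions, was at 46.9, 28.6 and 38.0 CPM under vehicle and at 41.9 and 41.2 CPM under DMXAA.

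In the PDGF, Notch and integrin alpha-8 pathway, 0 of 28 genes were called by edgeR, and the median log2 fold change was -0.04. An unadjusted edgeR p below 0.05 was found for 1 gene (lower), against 6.55% of all genes tested. That gene was Pdgfb, which encodes the ligand of PDGFRB. Pdgfb stood at 38.8, 39.9 and 38.5 CPM under vehicle and at 28.8 and 25.4 CPM under DMXAA. Both DMXAA libraries lay below all 3 vehicle libraries, which agreed within 0.05 on the log2 scale. The means were 39.1 ± 0.733 CPM (n = 3) and 27.1 ± 2.42 CPM (n = 2), with a log2 fold change of -0.53 (SE 0.10, 95% interval -0.76 to -0.29). Its adjusted p was 0.597 in edgeR and 0.0487 in DESeq2, and the DESeq2 call was lost whichever library was left out (adjusted p 0.134 to 0.99998). The estimate itself stayed between -0.62 and -0.44 in every alternative run. Summed endothelial markers, the main source cells of PDGF-B, were at 899, 574 and 838 CPM under vehicle and at 841 and 919 CPM under DMXAA, with overlap between the groups.

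None of the other PDGF genes was called. Pdgfa, a ligand of the alpha receptor, was at 25.8, 13.8 and 14.4 CPM under vehicle and 12.6 and 11.2 CPM under DMXAA, with vehicle library 1 high and both DMXAA libraries below the lowest vehicle library (log2 fold change -0.59, SE 0.29, edgeR adjusted p = 0.749). Pdgfd, another ligand of the beta receptor, was at 16.7, 14.2 and 18.5 CPM and at 17.5 and 21.9 CPM, and the groups overlapped. Pdgfra, the PDGF receptor that marks fibroblasts, ran from 66.0 CPM under vehicle library 1 to 16.7 CPM under vehicle library 2, with 51.4 and 39.2 CPM under DMXAA.

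Among Notch ligands, Jag2 was at 15.6, 6.48 and 10.7 CPM under vehicle and 6.44 and 7.41 CPM under DMXAA (log2 fold change -0.66, SE 0.35, edgeR adjusted p = 0.752). The groups overlapped. The Notch target Heyl, a transcription factor of vascular smooth muscle, was at 7.41, 4.49 and 5.93 CPM and at 5.88 and 4.73 CPM, also with overlap. Of the partners of integrin alpha-8, the ligand Fn1, fibronectin, was at 38.9, 15.6 and 29.1 CPM under vehicle and 40.7 and 49.8 CPM under DMXAA (log2 fold change 0.70, SE 0.33, edgeR adjusted p = 0.749), above every vehicle library. Without vehicle library 1, DESeq2 called Fn1 (log2 fold change 1.02, adjusted p = 0.00844) along with 0.496% of all genes and 0 of the 10, and edgeR did not (1.01, adjusted p = 0.348). Fibroblasts also make fibronectin, and the part of the low fibroblast markers of vehicle library 2 in the Fn1 values was not tested. Itgb1, its beta subunit, was at 384.6, 266.2 and 325.3 CPM and at 311 and 342 CPM (log2 fold change 0.0041).

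**Figure D4:**
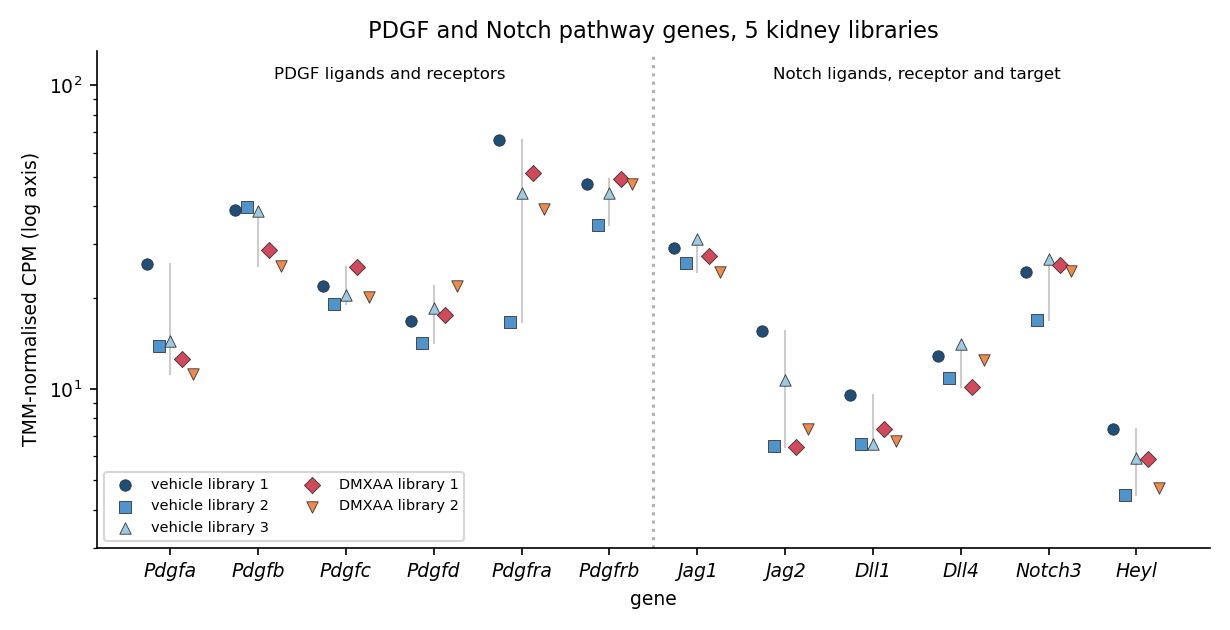
Levels of PDGF ligands and receptors and of Notch ligands, receptor and target in each library, in TMM-normalised CPM on a log axis. Pdgfb is the ligand whose 3 vehicle points (38.5 to 39.9 CPM) lie together above both DMXAA points (28.8 and 25.4 CPM), while Pdgfrb and Notch3 overlap between the groups.

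Of 28 other contractile genes, 27 were tested, 0 were called by edgeR or DESeq2, and the median log2 fold change was -0.08. In each direction 1 had an unadjusted edgeR p below 0.05, against 6.55% of all genes tested in either direction. Like Acta2, 21 of the 27 were highest in vehicle library 1, against 25.9% of all genes tested, but mostly by less. The summed list was there 1.33-fold the mean of the other 4 libraries, against 1.70-fold for the summed 10 genes and 3.06-fold for Acta2 alone. In addition, 19 of the 27 were lowest in vehicle library 2, against 25.6% of all genes tested. Myl9, for instance, was at 79.1, 31.7 and 40.8 CPM under vehicle and 42.3 and 45.9 CPM under DMXAA. Cacna1c, the pore subunit of the L-type calcium channel that triggers contraction, was at 6.81, 3.92 and 4.38 CPM under vehicle and 2.89 and 3.08 CPM under DMXAA (log2 fold change -0.75, SE 0.30, edgeR adjusted p = 0.741), an estimate of -0.48 without vehicle library 1. Itga1, the collagen-binding integrin alpha-1, was at 116, 124 and 138 CPM under vehicle and 151 and 146 CPM under DMXAA. Pln, phospholamban, was rare, at 0.51 to 0.78 CPM under vehicle and 0.83 and 1.19 CPM under DMXAA.

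Of 28 other mesangial and pericyte identity genes, 27 were tested, 0 were called by edgeR or DESeq2, and the median log2 fold change was 0.03. An unadjusted edgeR p below 0.05 was found for 4, all higher, against 6.55% of all 16226 genes tested (632 higher and 430 lower). Ndufa4l2, a mitochondrial protein gene enriched in pericytes, was at 4.92, 3.35 and 3.16 CPM under vehicle and 6.16 and 6.87 CPM under DMXAA (log2 fold change 0.77, SE 0.26, edgeR adjusted p = 0.736). Gucy1a1, a subunit of the nitric oxide receptor guanylate cyclase, was at 20.6, 11.9 and 18.7 CPM under vehicle and 25.8 and 28.01 CPM under DMXAA (log2 fold change 0.66, SE 0.22, edgeR adjusted p = 0.740). Both genes lay above every vehicle library in DMXAA. Its partner subunit Gucy1b1, named after its values were seen, overlapped between the groups, at 10.1, 6.08 and 7.49 CPM and at 10.7 and 9.10 CPM.

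Ren1, renin, marks the juxtaglomerular cells, which are of the mural lineage. The Ren1 difference came mostly from DMXAA library 2: it was at 43.7, 76.4 and 63.6 CPM under vehicle and at 72.9 and 146.5 CPM under DMXAA (log2 fold change 0.84, SE 0.32, edgeR adjusted p = 0.741), with an estimate of 0.25 without DMXAA library 2. The groups overlapped with all libraries. Without DMXAA library 1, which leaves 1 treated library, DESeq2 gave Ren1 an adjusted p of 0.0487 (log2 fold change 1.27, with 0.0985% of all genes called and 0 of the 10) and edgeR 0.998 (1.26). Those fits take the spread from the vehicle libraries and assume that the lone DMXAA library varies as they do. Anpep, an aminopeptidase of pericytes that is also abundant on the proximal tubule brush border, was at 106, 123 and 95.6 CPM under vehicle and 128 and 139 CPM under DMXAA. Of the proximal tubule markers, 5 of 10 were above all vehicle libraries in DMXAA, against 13.7% of all genes, the other 5 overlapped, and 3 of the 10 estimates were below 0. Their summed level overlapped between the groups, and their part in the Anpep values was not tested.

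Among the SRF, myocardin and TGF-beta regulators of smooth muscle genes, 25 of 26 were tested and 0 were called by edgeR or DESeq2. An unadjusted edgeR p below 0.05 was found for 0, against 6.55% of all genes tested, and the median log2 fold change was 0.04. Srf itself was even, at 30.5 to 34.6 CPM under vehicle and 33.7 and 33.6 CPM under DMXAA. Smad7, an inhibitor of TGF-beta signalling, was at 27.7, 31.6 and 32.4 CPM under vehicle and 26.9 and 24.6 CPM under DMXAA (log2 fold change -0.25, SE 0.11, edgeR adjusted p = 0.741). Both DMXAA libraries lay below the vehicle libraries. Tgfbr1, the type I TGF-beta receptor, was at 74.0, 74.7 and 79.9 CPM and at 85.1 and 87.6 CPM, and Tgfb2, a ligand, at 3.51, 1.54 and 2.16 CPM and at 1.66 and 1.19 CPM. Klf5, a transcription factor of smooth muscle and of epithelia, had the peak of vehicle library 1, at 12.9, 1.14 and 2.77 CPM under vehicle and 2.11 and 1.74 CPM under DMXAA.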

How the data were processed

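RNA-seq libraries of mouse kidney (3 vehicle, 2 DMXAA) were compared from 1 table of raw read counts per Ensembl gene ID, as the authors deposited it. HISAT2, featureCounts, Subread, DESeq2 1.16.1 and build mm10 were used per the submitters' processing notes. For their roles, the annotation, strand and multi-mapping reads, nothing was stated (not given in the sources used here), and the labels' protocols name 2 library kits without saying which was used. Columns carry abbreviated names: CO was read as control (vehicle) and XA as DMXAA, with the replicate number, a reading that no label states. Symbols came from GENCODE M21 (99.9% of IDs). In R 4.3.3, edgeR 4.0.16 (TMM, default filter, 16226 genes, group as the only term, two-sided, Benjamini-Hochberg over all genes tested) was the main test. It was tried on simulated data with the same spread for every gene, which does not cover the wider vehicle spread of the genes described here. SE is the log2 fold change over the square root of F. DESeq2 1.42.0 and 12 other alternatives were run. DESeq2 without each library in turn was added after the data were seen. Every pair of libraries differed by more than counting error (chi-square over its degrees of freedom 7.43 to 38.98). A count of 0 allows 0.149 to 0.171 CPM (3 counts, counting error only).

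The 10 genes and all lists were chosen with earlier results of these data known. All 10 are named, with the 4 genes of smallest p in each of 4 related lists (1 of these is not reported here), and 6 nearest profiles per group. Others serve as examples chosen after their values were seen.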

Additional observations from a re-analysis of the deposited data

How the results depend on the processing

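Under all 13 alternatives, 0 of the 10 genes were called. Over all genes, edgeR called 0 with the default filter, 34 without an expression filter, 4 with the replicate number as a block and 0 to 2 when each library was left out in turn. DESeq2 called 54, and 4 (without DMXAA replicate 2), 27 (without DMXAA replicate 1), 34 (without vehicle replicate 3), 133 (without vehicle replicate 1) or 179 (without vehicle replicate 2) when 1 library was left out, with 0 of the 10 genes among them. Of the related genes, edgeR called 0 under each setting and DESeq2 with all 5 libraries called 1 (Pdgfb). Without vehicle library 1, the DESeq2 calls included Fn1 and not Pdgfb. The median log2 fold change of the 10 genes, 0.06, ran from -0.12 to 0.15 over single libraries left out. Vehicle and DMXAA share the replicate numbers 1 and 2, but nothing in the labels pairs them, and the deviations of same-numbered libraries correlated at 0.0748 and 0.0809 across genes. With the block, Myh11 was at -0.98 and Cnn1 at -2.002 (adjusted p 0.934 for both), and no gene described here gained or lost a call. With 2 DMXAA libraries, the 95% intervals of Cnn1, Tagln, Acta2 and Myh11 include a 2-fold decrease, and those of Tagln and Itga8 a 2-fold increase. In Tagln the 10 to 40 counts per library limit precision.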

Other observations

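Of the smooth muscle genes below the expression filter, Actg2 and Tbx18 had nearly all of their counts in vehicle library 1, and Myocd was highest there. These genes were chosen after their values were seen, and none was tested in the main edgeR fit. Neither DESeq2 nor edgeR without an expression filter called any of them. Actg2, the actin of visceral smooth muscle such as that of the urinary tract and gut, had 154 counts (8.33 CPM) in vehicle library 1, 0 in vehicle libraries 2 and 3, and 2 and 1 under DMXAA. Tbx18, a transcription factor of the mesenchyme that forms ureteral smooth muscle and of pericytes, had 48 counts (2.60 CPM) there, 0 in vehicle libraries 2 and 3, and 2 and 0 under DMXAA. Myocd, the SRF partner myocardin, had 22 counts there against 2 and 7 in the other vehicle libraries and 6 and 8 under DMXAA. Among skeletal and cardiac muscle genes, Ckm had 2 counts in that library, Acta1 6, Actc1 5, and Tnnt2, cardiac troponin T, was at 1.46 CPM there and at 0.0497 to 0.284 CPM in the others.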
